A study of Homo sapiens with 9 samples.

Results

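Transcripts of a temozolomide-resistant line of U87MG (R50) were compared with those of the parent line (parent), 3 libraries against 3, which are 6 of the 9 libraries of the series. U87MG is an established human glioblastoma cell line. R50 is a clonal line raised from it by extended exposure to temozolomide and kept in medium with 50 µM of the drug. The parent libraries are labelled as control, and whether they received the solvent of the drug, DMSO, is not given in the sources used here. The other 3 libraries come from R50_OFF, a clonal line whose temozolomide was stopped after a treatment of 2 months. They entered the fit to share its estimate of spread, and their levels are given beside some results. R50 is 1 clone, so the drug in the medium, the selection it exerted and the choice of the clone cannot be told apart. Nothing says that the replicates were separate cultures, so each p-value speaks for the variation among these libraries alone, part or all of which may be technical.

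Temozolomide methylates DNA bases, and the methylated guanine that persists mispairs at replication, which draws mismatch repair into repeated rounds of excision. The resulting breaks and gaps are known to signal through the ATR and ATM kinases, and cell cycle inhibitors and death genes are raised. U87MG cells are known for a mesenchymal character, with strong matrix, cytokine and growth factor expression and few transcripts of mature glia.

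The authors deposited a normalized signal per kilobase of transcript for 33264 genes, called the level here. Of these, 16456 genes had a level of at least 10 in at least 3 of the 9 libraries and were tested. The reads traced back from the levels came to 28.8 to 34.7 M in the parent libraries and 29.6 to 31.4 M in those of R50, and mitochondrial genes took 1.40 to 1.63% and 1.49 to 1.73% of them. More genes lay above 0 in R50, 24632 to 24892, than in parent, 22904 to 23373. On the first principal component of the 6 libraries, which held 83.1% of their variance, the parent libraries lay from -89.4 to -87.5 and the R50 libraries from 86.4 to 90.6. R50 replicate 2 stood apart within its group. Its chi-square per gene against sampling noise was 15.1 with replicate 1 and 18.1 with replicate 3, where replicates 1 and 3 gave 4.66 and the parent pairs 2.38 to 4.49. Counts or medians of lists that moved by over 1.5 times without it are given without it as well, and a gene near 0 in parent can drop out of the test when 1 R50 library is left out, because 3 libraries must reach the minimum.

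The difference between the lines reached most genes. With limma on log2(level + 1), 5206 genes were higher in R50 (31.6% of those tested) and 5216 lower (31.7%), at a Benjamini-Hochberg adjusted p under 0.05, so that 63.3% passed in all. Members moving both ways are therefore common in any list, and the counts of lists below are to be read beside these shares. A gene near 0 in parent or in R50 was tested only where another line was high. Large changes in the lists thus partly follow from the filter. The 3 R50 libraries did not overlap the 3 parent libraries in 11229 genes (68.2%). Many of the differences were small, with a median absolute log2 change of 0.43 over all tested genes and 1326 genes past the threshold at less than 1.2-fold. At least 2-fold, 2062 genes were higher (12.5%) and 1489 lower (9.05%), and at least 8-fold, 638 were higher and 281 lower. Genes switched on outnumbered those switched off, since 67 genes were listed at 0 in every parent library and at 20 or more in every R50 library, and 17 genes were the reverse. The log2 changes below are of level + 1, which understates the change of genes at low levels, and each is given with its standard error (SE) from that fit. A gene is said to have risen or fallen only where it passed. Most named genes were chosen among those without overlap, so the lack of overlap in them was fixed by the choice. In bulk RNA, fewer cells expressing a gene and less RNA per cell cannot be told apart.

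Surface proteins of nerve cells led the rises among genes that met the rule for naming. TENM2 (teneurin 2, which pairs with latrophilins across synapses, chr5:166979029-168264157, hg38) stood at 22.6, 13.2 and 13.9 in the parent libraries and at 12190, 11895 and 11883 in R50. Its lowest R50 library lay far above its highest parent library, a log2 change of 9.45 (SE 0.18, adjusted p = 3.62e-11, limma). THY1, a glycoprotein of neurons, fibroblasts and some stem cells, had parent levels of 1.76, 20.0 and 16.7 and R50 levels of 3448, 3241 and 4015. L1CAM, the founding member of the L1 adhesion family, rose from 19, 12.1 and 21.8 to 2190, 1862 and 2517, a change of 6.91 (SE 0.18, adjusted p = 2.43e-10, limma). Its relative CHL1 was at 1.57, 0 and 0 in parent and at 550, 646 and 575 in R50. For these 4 genes the smallest gap between the groups was that of L1CAM, where even the lowest R50 library exceeded every parent library many times over. CNTN6, a contactin of the same immunoglobulin superfamily, was listed at 0 in the 3 parent libraries and at 31.8, 33.8 and 34.8 in R50.

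The adhesion molecules did not rise as a block. Of 15 tested genes listed as neural adhesion molecules, mostly of the immunoglobulin family, 9 rose and 5 fell. Their median log2 change was 1.55 beside 0.02 over all tested genes. The median was 0.74 with quantile normalization, and 0.65 over the 13 still tested without R50 replicate 2, 0.52 without replicate 1 and 0.62 without replicate 3. CNTNAP2, which is not of that family, at -3.03, and NCAM2, at -2.85, were the lowest of the list. Of 7 teneurins, latrophilins and FLRT partners, 3 rose and 4 fell. TENM3 dropped from 6840, 6893 and 6692 to 2519, 2644 and 2316 and TENM4 from 1335, 1489 and 1489 to 68.6, 47.7 and 52.5, so that TENM2 took the place of TENM3 as the tested teneurin with the highest level per kilobase. The latrophilin ADGRL1, a teneurin receptor, rose by 1.22 and its relative ADGRL2 fell by 0.87. Among 43 axon guidance genes, 15 rose and 20 fell (median -0.24, or -0.12 without R50 replicate 2). The ephrin gene EFNA1 rose from at most 2.63 in any parent library to at least 52.6 in any R50 library, while the semaphorin SEMA4D and the netrin receptor DCC fell, with changes of -5.16 and -4.26. DCC, a large receptor that guides commissural axons, went from 1624, 1801 and 1722 to 86.4, 125 and 64.4.

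**Figure D1:**
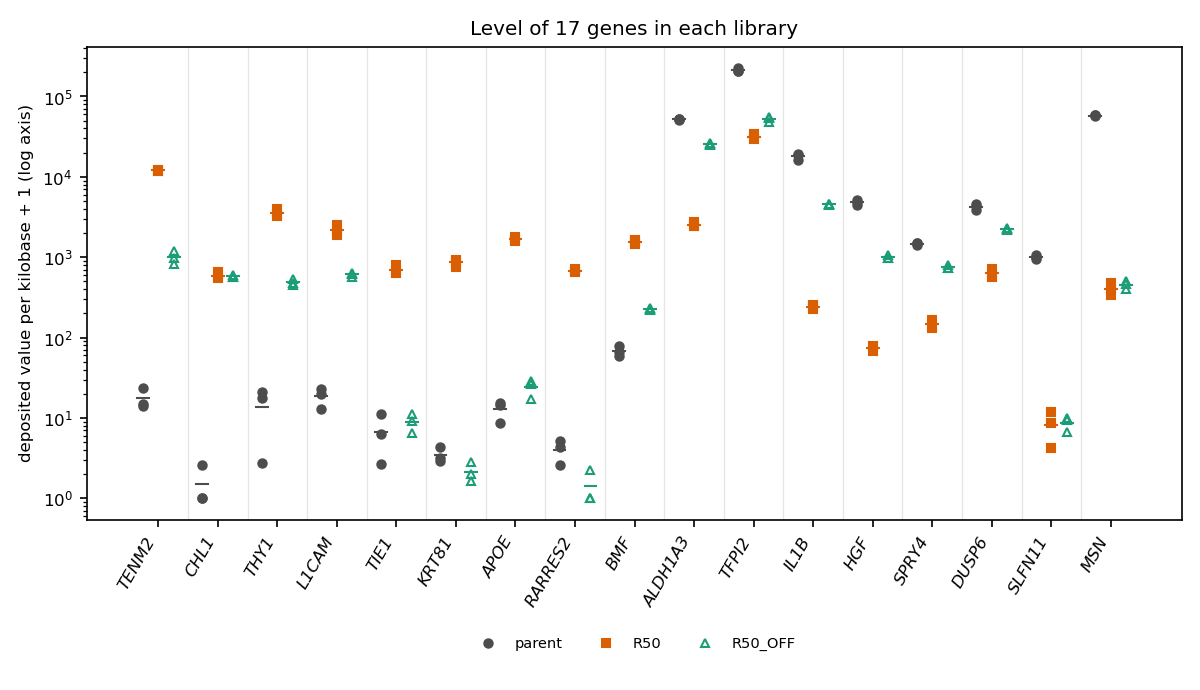
Deposited level per kilobase plus 1 (log axis) of 17 genes in each library of parent (filled circles), R50 (filled squares) and R50_OFF (open triangles), with a short line at each group mean. The 17 genes were named by a rule that required the parent and R50 libraries not to overlap. They run from TENM2, whose R50 libraries stand at 11883 to 12190, to MSN, whose R50 libraries stand at 333 to 476. R50_OFF lies near R50 for CHL1, SLFN11 and MSN and near parent for KRT81 and TIE1.

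The rest of the 25 largest rises came from other kinds of genes. TIE1, an orphan receptor of endothelial cells, rose from 1.68, 10.3 and 5.31 to 651, 639 and 804. APOE, the lipid carrier made by astrocytes and macrophages, went from 13.7, 7.61 and 14.4 to 1634, 1597 and 1792, a change of 7.07 (SE 0.24, adjusted p = 1.71e-09, limma). RARRES2, which encodes the secreted chemerin and was first known as a retinoid-responsive gene, rose from at most 4.11 to at least 647. The rule that named these 3 genes required that the groups did not overlap. SPN, the sialoglycoprotein CD43 of blood cells, rose by 7.18. The germline genes MAGEA12 and CSAG1, which neighbour each other on the X chromosome, rose by 7.31 and 7.22. Of 17 tested MAGE and other germline genes, 11 rose and 4 fell (median 0.89). MAGEA6 was one that fell, from 432, 426 and 490 to 25.1, 21.2 and 22.1, and CTAG2 was at 63.7 to 73.9 in parent and listed at 0 in all R50 libraries. Reads of these near-identical X-linked copies may be split between them, so their values are uncertain.

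Keratins, the intermediate filaments of epithelia, were mostly higher. Of 12 tested, 7 rose and 2 fell, with a median of 2.13. Without R50 replicate 2, 10 were tested, 5 rose and the median was 1.03, and without replicate 3 it was 1.00. Some that rose, KRT18, KRT81 and KRT86 among them, had parent means under the minimum of 10. They were tested only because they were high outside parent, so the count and median partly follow from the filter. KRT8 stood at 161, 143 and 154 in parent and at 915, 727 and 938 in R50, and its partner KRT18 at 8.36, 3.99 and 10.4 against 75.5, 80.4 and 60.3. KRT7 rose by 2.38 and KRT80 by 1.88. The hair keratins KRT81 and KRT86, near-identical neighbours on chromosome 12 between which reads may be split, rose from at most 3.29 and 1.62 to at least 755 and 148. KRT15 fell from 1215, 1221 and 1353 to 265, 242 and 300. VIM, the mesenchymal filament vimentin, remained the most abundant of the filament genes named here, at 178443, 160406 and 170867 in R50, after a fall of 0.67.

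Tested zinc finger genes of chromosome 19 rose in whole clusters. These ZNF genes, most of which encode repressors that recognise DNA through arrays of zinc fingers, lie in clusters that grew by tandem duplication. Of 197 tested on chromosome 19, 139 rose and 13 fell, with a median of 0.70, and 90 rose at least 2-fold. The falls numbered 8 without parent replicate 1 or 2 and 20 with quantile normalization. Of 201 tested ZNF genes on other chromosomes, 78 rose and 31 fell, with a median of 0.11 and 24 at least 2-fold higher. The other 894 tested genes of chromosome 19 had a median of 0.11, with 337 higher and 207 lower. ZNF genes low in parent were tested only if they were high in another line, so these counts and medians partly follow from the filter. ZNF genes of one cluster share sequence, and reads may be split between them.

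The rises were concentrated in some clusters. Between 20 and 25 Mb of chromosome 19 (chr19:20000001-25000000), all 27 tested ZNF genes rose at least 2-fold, with a median of 5.47 and changes from 1.22 to 8.20. Their parent means had a median of 1.29, under the minimum of 10, so many were tested only because they were high outside parent. A gene of the window that stayed low in every line was not tested, so these counts and medians partly follow from the filter. ZNF91 (chr19:23304991-23395471) stood at 0, 3.95 and 3.17 in parent and at 749, 875 and 796 in R50. ZNF681 stood at 1.71, 2.99 and 3.6 against 688, 945 and 741, and ZNF100 was listed at 0 in every parent library and at 171, 258 and 171 in R50. The 17 other tested genes of that window, none of them annotated as protein coding, rose in 14 cases (median 4.86), among them LINC01224, from at most 5.45 to at least 871. The parent means of these other genes had a median of 0.59, so the same limit holds for them. The 5 ZNF genes between 15 and 20 Mb had a median of 4.6, the 17 between 35 and 40 Mb a median of 3.28 with 16 higher, and the 33 between 50 and 55 Mb a median of 2.39 with 30 higher. The parent means in these windows had medians of 7.66, 35.6 and 30.6 and ran down to 0 in each. The limit of the filter therefore holds in part for them as well. Between 50 and 55 Mb, ZNF468 rose from 1.86, 0 and 0 to 461, 505 and 430, and ZNF816 and ZNF28 by 7.81 and 7.08. Elsewhere on the chromosome the medians were lower, save for the 2 ZNF genes between 45 and 50 Mb (2.89). Of the 14 between 5 and 10 Mb, 9 rose, with a median of 0.48 and changes of up to 7.31, and of the 19 between 10 and 15 Mb, 14 rose, with a median of 0.61 and changes of up to 6.31. The 6 between 30 and 35 Mb had a median of -0.23, with 2 higher and 2 lower, and the 4 in the first 5 Mb a median of 0.13, with 1 higher. The 24 ZNF genes between 40 and 45 Mb had a median of 0.10, with 7 higher and 3 lower, and the 46 between 55 and 60 Mb a median of 0.28, with 26 higher and 6 lower. Outside chromosome 19, ZNF736, ZNF679 and ZNF727, all on chromosome 7, were among the 4 ZNF genes with the largest changes, led by ZNF679, which was listed at 0 in parent and at 27.2, 48.5 and 36.9 in R50.

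**Figure D2:**
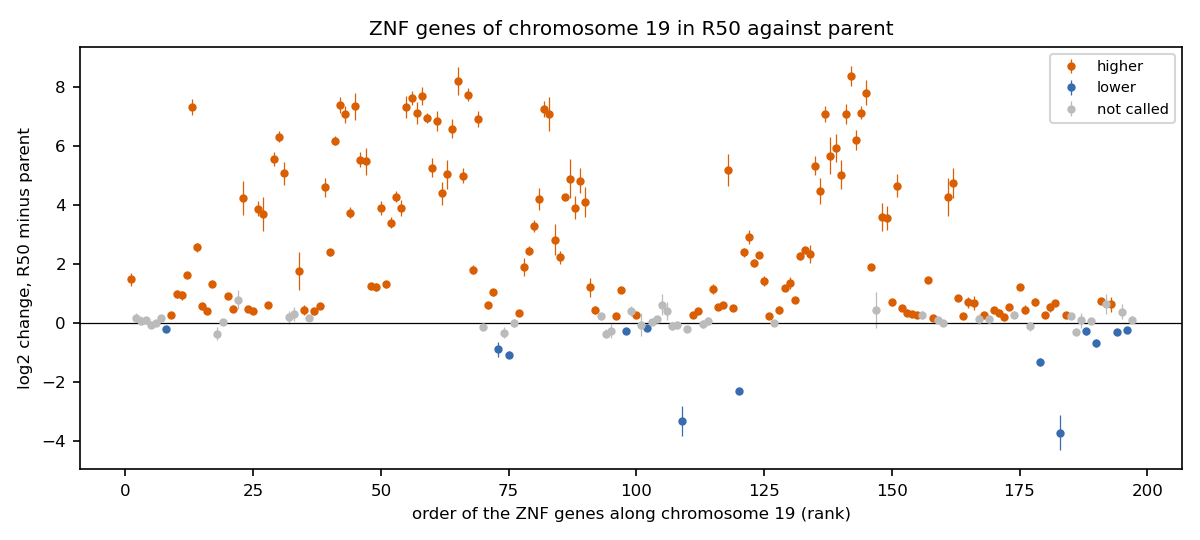
Log2 change from parent to R50 with its standard error for each of the 197 tested ZNF genes of chromosome 19, in their order along the chromosome (rank), coloured by whether the gene was higher, lower or not past the threshold. Runs of neighbouring genes with changes of 4 to 8 stand beside runs near 0, and 13 genes were lower.

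Such repressors are known to act through chromatin silencing, whose genes had small changes. Of 31 tested genes of DNA methylation and silencing, 6 rose and 14 fell, with a median of -0.05 that was -0.14 without R50 replicate 2. UHRF1, which directs the maintenance methyltransferase to replicated DNA, fell from 730, 741 and 774 to 466, 480 and 487. SMCHD1, a silencing factor of the inactive X and of repeats, fell by 0.82, HDAC9 by 1.02, and the deacetylase gene SIRT1 rose by 0.67. Of 25 SWI/SNF subunits, the remodelling complex that opens chromatin, 11 rose and 9 fell (median 0.13), with DPF3 the lowest at -1.60.

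MSN, the gene of moesin, had the largest fall among genes that met the rule for naming. It stood at 57196, 58401 and 57975 in parent and at 333, 394 and 476 in R50, a change of -7.18 (SE 0.11, adjusted p = 1.29e-11, limma). Moesin, ezrin and radixin tie the actin cortex to membrane proteins, and the 2 relatives did not move with it. EZR went from 1017, 992 and 968 to 921, 827 and 935, a fall of 0.15 (limma adjusted p = 0.0394, 0.025 to 0.247 over the alternatives) whose call was lost with quantile normalization, in the fit of the 6 libraries alone, without a filter on low values and without any one parent replicate or R50 replicate 2. RDX, at 1268, 1389 and 1316 against 1069, 1399 and 1122, overlapped between the groups (limma adjusted p = 0.172). The scaffolds NHERF1 and NHERF2, which bind the membrane end of these linkers, rose by 1.26 and 2.44.

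The 25 largest falls also held enzymes, receptors and transcription factors. SLFN11, a restriction factor that halts stressed replication forks, went from 1010, 1054 and 956 to 7.65, 10.9 and 3.23, while SLFN12 rose by 0.72. LMO2, an adaptor of transcription factors of blood and endothelium, fell from 456, 484 and 475 to 5.44, 3.06 and 5.11. TBX2, a T-box repressor, fell from 1041, 1063 and 1058 to 20.3, 19.4 and 22.0. SLFN11, LMO2 and TBX2 were likewise named by a rule that required no overlap. SLC1A1, the neuronal glutamate transporter, fell by 5.49, PLA2G4A, the phospholipase that frees arachidonic acid, by 5.20, IGFBP1, a binding protein of insulin-like growth factors, by 5.33, and TNFRSF1B, a receptor of tumour necrosis factor, by 4.39. AQP9, the channel for water and glycerol, fell from 1112, 1074 and 1095 to 43.0, 42.2 and 40.7, whereas AQP1 and AQP3 rose by 5.61 and 4.07. HGF, the ligand of MET, fell from 4496, 5131 and 4851 to 68.0, 76.7 and 75.

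Transcripts of ALDH1A3 and of most genes of aldehyde and xenobiotic metabolism fell. ALDH1A3 (chr15:100877714-100916626), which makes retinoic acid and marks mesenchymal glioma cells, stood at 53048, 51994 and 50863 in parent and at 2468, 2717 and 2415 in R50, a change of -4.36 (SE 0.05, adjusted p = 1.24e-12, limma). RARB, a receptor gene that retinoic acid itself induces, fell from 275, 281 and 261 to 33.0, 31.9 and 29.4. Of 30 genes of aldehyde and xenobiotic metabolism, 9 rose and 18 fell, with a median of -0.62. The exception with the largest rise was ALDH7A1, from 5.51, 7.49 and 3.86 to 89.8, 83.5 and 99.9. Of 23 ABC transporters, 9 rose and 9 fell (median 0.10), none of the rises reaching 2-fold. ABCG2, a pump of many drugs, was at 71.7, 59.4 and 58.5 in parent and at 0.221, 0 and 0 in R50, and ABCC2 and the cholesterol exporter ABCA1 fell by 2.19 and 1.32.

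In terms of level per kilobase, the falls of a few abundant genes were larger than any rise. TFPI2, an inhibitor of plasmin and tissue factor, had the largest fall in level, from 222853, 206495 and 208908 to 30691, 34468 and 29310. Of 18 tested genes of plasminogen activation and protease inhibition, 13 fell and 4 rose, with a median of -0.76. Against them SLPI, an inhibitor of elastase, rose from 3.6, 0 and 5.68 to 764, 645 and 667, and SPINT2, an inhibitor of the activators of HGF, by 2.24. The glycolytic gene ENO1, the actin-binding TMSB10, the integrin ITGA3, the galectin LGALS1 and the membrane protease MMP14 were also among the 10 largest falls in level. HSP90AA1, TGFBI, the ferritin genes FTH1 and FTL, and 4 ribosomal protein genes were among the 10 largest rises in level. HSP90AA1 went from 226044, 231084 and 220816 to 276055, 302192 and 260114, a change of only 0.30.

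Output genes of the ERK pathway were lower. ERK, the last kinase of the RAS, RAF and MEK relay below growth factor receptors, induces its own inhibitors, so that the transcripts of these inhibitors are commonly read as a gauge of its activity. Of 16 tested output and feedback genes, 15 fell and 0 rose, with a median of -1.06, and 9 fell at least 2-fold. SPRY4, a Sprouty inhibitor of receptor signalling, went from 1435, 1497 and 1499 to 129, 139 and 166, a change of -3.35 (SE 0.09, adjusted p = 2.43e-10, limma). DUSP6, the phosphatase that switches ERK off, went from 3901, 4291 and 4580 to 570, 605 and 706. FOSL1, an AP-1 subunit, fell from 9314, 9059 and 9200 to 3238, 3236 and 3275, and CCND1, the cyclin through which mitogens drive G1, from 29886, 31105 and 30072 to 11111, 12134 and 10817. Lack of overlap between the groups was a condition for naming these 4 genes. SPRED1, at 1990, 2217 and 2046 against 1610, 2338 and 1626, was the member that did not pass (limma adjusted p = 0.207).

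Early response genes moved both ways. Of 16 AP-1 and immediate early genes, FOSL1 included, 7 fell and 4 rose (median -0.14, or -0.04 without R50 replicate 2), EGR2 and MAFF falling by 1.54 and 1.77 and NR4A1 rising by 1.54. Upstream, 15 of 24 FGF, PDGF and VEGF ligands and receptors fell and 6 rose (median -0.81). PDGFRA fell from 105, 120 and 117 to 11.6, 9.80 and 1.02, PDGFB was listed at 0 in parent and at 15.4, 11.2 and 24.5 in R50, and the receptor-like PDGFRL rose by 5.24.

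**Figure D3:**
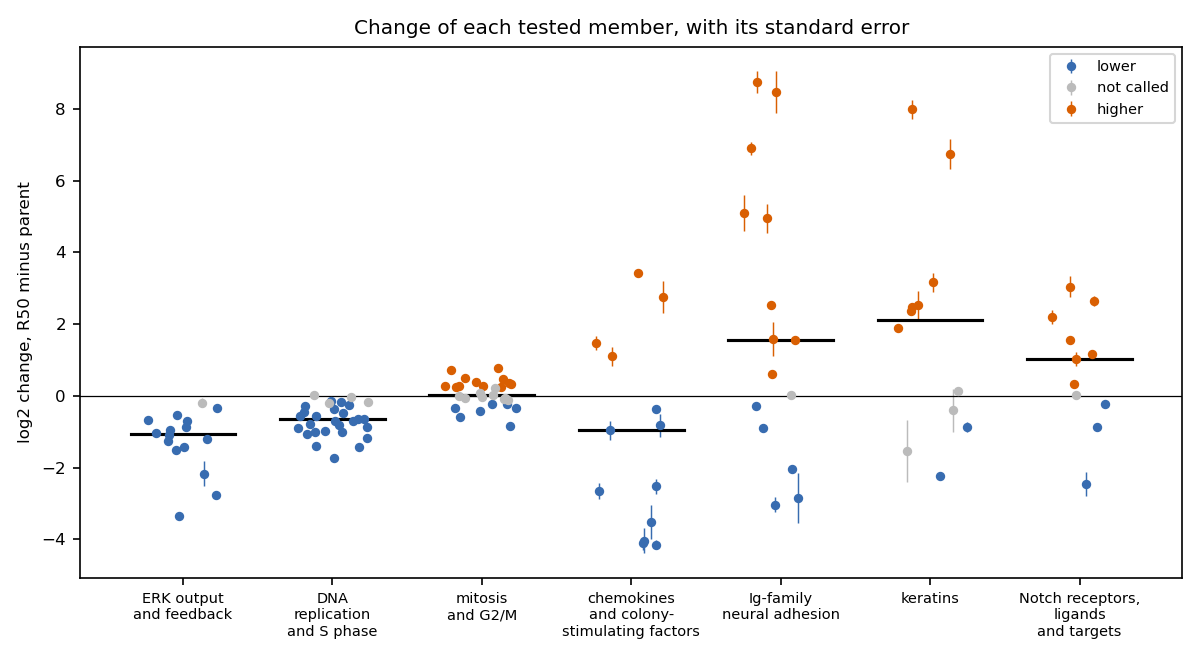
Log2 change from parent to R50, with its standard error, of each tested member of 7 gene lists (points, coloured by whether the gene was higher, lower or not past the threshold), with a line at the median of each list. All ERK output members lie below 0 and the replication members at or below 0.02, the mitosis members spread between -0.83 and 0.78, and neural adhesion, chemokine and keratin members reach far in both directions.

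Replication genes fell together while mitotic genes did not. Of 29 tested genes of DNA replication and S phase, 25 fell and 0 rose with a median of -0.65, and 7 fell at least 2-fold. With quantile normalization 1 rose. Their summed level went from 156034 to 157147 in the parent libraries to 90953 to 96948 in R50. MCM6, a subunit of the helicase that unwinds DNA, fell from 13673, 13689 and 13674 to 4151, 4338 and 3919, and GINS2, a partner of that helicase, from 3175, 3525 and 3735 to 1527, 1562 and 1498. E2F1, the transcription factor that opens S phase, fell from 1704, 1662 and 1705 to 643, 623 and 643, and E2F2 by 1.09. TYMS, at 0.02, was the only member with a value above 0, and it did not pass.

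Many of these genes carry letters that E2F proteins are known to bind, and 3 promoters are shown for that reason. The windows run from 250 bases before to 50 after the start in RefSeq (GRCh38.p14), and capitals mark TTTCCCGC or TTTGGCGC on either strand.
MCM6, chr2:135876394-135876693, minus strand: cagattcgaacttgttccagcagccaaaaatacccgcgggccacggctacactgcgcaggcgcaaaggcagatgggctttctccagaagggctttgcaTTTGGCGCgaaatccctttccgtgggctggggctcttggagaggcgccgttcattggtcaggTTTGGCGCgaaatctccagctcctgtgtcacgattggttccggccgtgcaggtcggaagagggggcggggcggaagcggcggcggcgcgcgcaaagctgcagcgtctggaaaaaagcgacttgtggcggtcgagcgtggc
E2F1, chr20:33686336-33686635, minus strand: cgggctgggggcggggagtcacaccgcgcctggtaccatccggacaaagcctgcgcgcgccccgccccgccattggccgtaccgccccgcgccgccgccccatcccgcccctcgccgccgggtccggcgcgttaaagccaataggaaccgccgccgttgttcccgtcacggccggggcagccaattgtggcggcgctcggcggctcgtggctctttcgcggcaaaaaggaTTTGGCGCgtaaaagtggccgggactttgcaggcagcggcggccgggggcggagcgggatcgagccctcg
GINS2, chr16:85688905-85689204, minus strand: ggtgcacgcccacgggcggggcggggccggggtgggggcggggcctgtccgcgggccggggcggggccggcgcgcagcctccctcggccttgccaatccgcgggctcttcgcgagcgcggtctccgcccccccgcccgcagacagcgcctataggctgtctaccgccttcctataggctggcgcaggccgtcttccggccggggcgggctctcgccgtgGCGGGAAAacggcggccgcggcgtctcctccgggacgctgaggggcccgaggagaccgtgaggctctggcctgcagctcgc

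Either of the 2 motifs stood in 17 of the 27 replication promoters that matched RefSeq by symbol (63.0%), in 1 of 23 mitosis promoters (4.35%), in 407 of 11231 promoters of tested genes (3.62%) and in 631 of all 27305 promoters with a symbol (2.31%). The letters alone did not sort the falls. Of the 17 replication genes with them 14 fell (median -0.65), and of the 10 without them 10 fell (median -0.63). Over all tested genes with a promoter, 153 of the 407 with the letters fell (37.6%) and 3822 of the 10824 without them (35.3%).

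Mitosis genes, by contrast, stood near the parent level. Of 29 tested genes of mitosis and G2/M, 12 rose and 7 fell, with a median of 0.02 and none past 2-fold, and 14 rose and 5 fell with quantile normalization. Without R50 replicate 2 the median was 0.08. KIF20A, a kinesin of cytokinesis, and the phosphatase gene CDC25C rose by 0.78 and 0.71, and CENPE, a kinesin of the kinetochore, fell by 0.83. The proliferation marker MKI67 fell from 18285, 17079 and 17022 to 12679, 11355 and 11146. Of 19 CDK inhibitors and cyclins, 11 fell and 3 rose (median -0.32), or 11 and 6 with quantile normalization and 5 rises with a replicate block. CDKN1A, the inhibitor p21, rose from 4504, 4596 and 4598 to 9383, 8472 and 9411.

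ATR and ATM, kinases that answer DNA damage, were lower. Of 26 genes of damage checkpoints and lesion bypass, 13 fell and 5 rose (median -0.17). ATR, the kinase of stalled forks, fell from 794, 754 and 775 to 360, 417 and 340, its adaptor CLSPN by 1.01, ATM, the kinase of broken ends, from 1751, 1640 and 1576 to 939, 1105 and 875, and RAD18, which starts lesion bypass, by 0.81.

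BMF, HRK and BBC3, killers of the BCL2 family that carry only its BH3 domain, rose. Of 24 BCL2 family and death receptor genes, 11 rose and 10 fell, with a median of 0.00, beside 31.6% higher and 31.7% lower over all tested genes. BMF, which is held at the cytoskeleton in healthy cells, went from 77.6, 65.0 and 57.3 to 1590, 1469 and 1618, a change of 4.54 (SE 0.10, adjusted p = 9.94e-11, limma). HRK, known from neurons, went from 8.75, 10.2 and 6.14 to 120, 94.4 and 105, and BBC3, which encodes PUMA, from 135, 114 and 118 to 280, 245 and 302. BIRC3, an inhibitor of apoptosis induced by NF-kB, fell from 78.2 ± 7.10 to 34.3 ± 9.24 (mean and SD, n = 3).

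**Figure D4:**
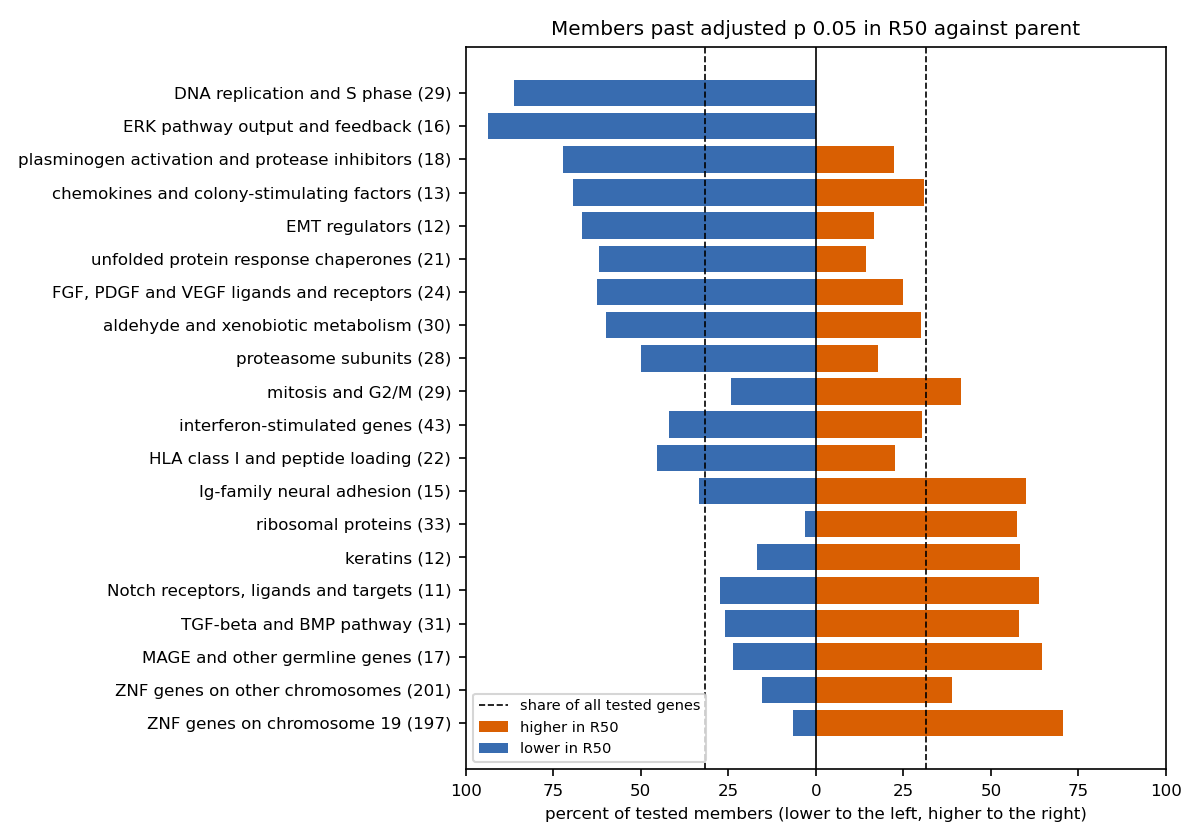
Percent of the tested members (number in brackets) of 20 gene lists that were lower (left) or higher (right) in R50 at an adjusted p under 0.05, with dashed lines at the shares of all tested genes, 31.7% lower and 31.6% higher. ERK output and replication genes lie far beyond the left line with no member on the right in the main fit, and the ZNF genes of chromosome 19 lie far beyond the right line. The lists were chosen with earlier results of these data known, so their distance from the lines is no independent finding.

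Transcripts of interleukin 1 and of many chemokines fell. Interleukin 1 is known to induce cytokines, its own transcript included, through NF-kB and AP-1. Of 11 interleukin-1 family genes and receptors, 5 fell and 4 rose, beside 31.7% lower and 31.6% higher over all tested genes. Only 1 rose at a minimum level of 50. IL1B stood at 19401, 16029 and 18565 in parent and at 257, 227 and 243 in R50, and IL1A at 190, 163 and 191 against 32.2, 34.0 and 36.4. The receptor gene IL1R1 fell by 1.22, from 665, 676 and 691 to 273, 320 and 281, and NLRP3, the inflammasome sensor, by 2.80. The antagonist IL1RN rose by 1.38 and IL18, a relative of IL1B, from at most 1.91 to at least 28.3. IL1A, IL1B, IL1R1 and IL1RN lie on chromosome 2, where the median over 1114 tested genes was -0.34, and the part of the chromosome in these changes was not tested.

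Of 13 chemokines and colony-stimulating factors, 9 fell and 4 rose, with a median of -0.96. CXCL8, which draws neutrophils, went from 2988, 2101 and 2730 to 134, 154 and 148, and CSF3, the granulocyte factor, from 2957, 1776 and 2552 to 135, 120 and 158. CCL20 fell by 4.03 and CXCL12, the ligand of CXCR4, by 3.52. Against these, ACKR3, a scavenger receptor of CXCL12 outside the rule for named genes, rose from 123, 126 and 110 to 1300, 1337 and 1258. LIF and IL6, cytokines that signal through gp130, fell from 2560, 1973 and 2314 to 162, 209 and 205 and from 427, 328 and 407 to 84.9, 50.3 and 76.8. EBI3, a subunit shared by heterodimeric cytokines of that family, rose from 4.22, 1.23 and 10.4 to 1373, 1193 and 1701, and IL27RA, the receptor of one of them, by 2.14. Of the 15 family members, 5 rose and 5 fell, beside 31.6% higher and 31.7% lower over all tested genes.

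The letters GGNNNTTCC of the NF-kB site, searched on both strands, stood in 6 of 9 chemokine promoters (66.7%), in 2 of 8 interleukin-1 promoters (25%), in 12 of 27 replication promoters and 4 of 9 ERK output promoters (44.4% each), in 6 of 23 mitosis promoters (26.1%) and in 2576 of 11231 promoters of tested genes (22.9%). The pair below, for the chemokines CXCL8 and CCL20, is shown with these letters in capitals.
CXCL8, chr4:73740319-73740618, plus strand: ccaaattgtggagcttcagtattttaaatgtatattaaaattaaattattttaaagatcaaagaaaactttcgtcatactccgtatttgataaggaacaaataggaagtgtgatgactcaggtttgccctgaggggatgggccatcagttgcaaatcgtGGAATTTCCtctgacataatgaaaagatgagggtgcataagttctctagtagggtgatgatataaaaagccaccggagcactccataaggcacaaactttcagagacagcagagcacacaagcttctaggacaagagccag
CCL20, chr2:227813592-227813891, plus strand: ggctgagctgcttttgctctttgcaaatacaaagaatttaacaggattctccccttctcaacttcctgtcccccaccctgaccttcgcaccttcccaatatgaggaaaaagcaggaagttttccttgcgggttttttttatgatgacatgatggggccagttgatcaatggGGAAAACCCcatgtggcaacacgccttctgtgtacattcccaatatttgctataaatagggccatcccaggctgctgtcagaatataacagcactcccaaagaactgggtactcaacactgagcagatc
A match is a description of letters and shows no binding.

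Interferon-stimulated genes moved both ways. Of 43 tested, 13 rose and 18 fell (median -0.11), beside 31.6% higher and 31.7% lower over all tested genes. IFITM1, IFITM2 and IFITM3, neighbours on chromosome 11 whose proteins block viral entry, were higher. IFITM1 was listed at 0 in the 3 parent libraries and at 326, 255 and 389 in R50, IFITM2 rose from 399, 428 and 490 to 6667, 5861 and 7052, and IFITM3 from 716, 732 and 752 to 9386, 7903 and 10337. The family shares sequence, and its reads may be split. OAS3, one of the synthetases that sense double-stranded RNA, fell from 517, 438 and 465 to 28.8, 17.9 and 45.1, and its neighbours OAS1 and OAS2, named after their values were seen, fell by 2.73 and 2.11.

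CIITA, HLA-DRA and CD74, genes of class II antigen presentation, fell. CIITA, the master regulator of class II genes, went from 800, 828 and 833 to 173, 141 and 198, HLA-DRA from 3082, 3282 and 3283 to 432, 441 and 503, and CD74, the invariant chain, from 9345, 10200 and 10711 to 1921, 1670 and 2158. NLRC5, the regulator of class I genes, fell by 0.97, while HLA-B, a class I molecule named after its values were seen, rose from 12654, 12941 and 13193 to 19372, 17177 and 19020. Of 22 genes of HLA and peptide loading, 5 rose and 10 fell (median -0.05), 8 and 8 with quantile normalization. The rises numbered 3 without R50 replicate 1 and 8 without R50 replicate 2, which was the lowest R50 library in 17 of the 22. HLA reads may be split between copies and depend on the alleles. Of 16 complement genes, 8 rose and 5 fell, with C5AR1, the receptor of the C5a fragment, higher by 2.40.

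By count, most tested Notch signalling genes were higher. Of 11 tested receptors, ligands and targets, 7 rose and 3 fell, with a median of 1.03. The summed level of the list fell from 16035 to 16623 in parent to 12143 to 12448 in R50, most of it NOTCH2. The target genes HES1, HEY1 and HEY2, repressors that hold cells undifferentiated, rose by 2.65, 2.19 and 3.05. HES1 went from 20.8, 21.8 and 25.3 to 130, 173 and 140. NOTCH3 rose from 450, 528 and 523 to 1507, 1259 and 1639, NOTCH2 fell by 0.87, and MFNG, a glycosyltransferase that tunes receptor choice, fell by 2.45.

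Wnt and TGF-beta genes moved both ways, as did all tested genes, of which 31.6% were higher and 31.7% lower. Of 25 Wnt genes, 11 rose and 8 fell, with a median of 0.38 that turned to -0.02 with quantile normalization and was 0.22 without R50 replicate 2. The ligand WNT9A rose by 4.49, RSPO3, which stabilises Frizzled receptors, from 4.99, 5.10 and 6.13 to 160, 131 and 97.2, and NKD1, a feedback inhibitor, by 2.63, while the co-receptor LRP5 fell by 3.37 from a low level, with R50 libraries at 0, 0 and 10.7. Of 31 TGF-beta and BMP genes, 18 rose and 8 fell (median 0.33). INHBA, the subunit of activin A, rose from at most 1.69 to at least 28.9. LTBP1, which stores latent TGF-beta in the matrix, fell from 34650, 35566 and 35033 to 7050, 7127 and 6697. Its relative LTBP2 fell by 2.73.

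Most regulators and markers of the epithelial to mesenchymal transition (EMT) fell. Of 12 EMT regulators and markers, 8 fell and 2 rose, with a median of -0.63. PRRX1 went from 4021, 4626 and 4497 to 1068, 1228 and 1045, FOXC2 from 496, 499 and 479 to 52.1, 69.3 and 67.2, and FN1, fibronectin, from 40631, 45247 and 45132 to 12893, 11856 and 12891. ZEB1 and ZEB2 fell by 0.68 and 0.82 and TWIST1 by 0.60. SNAI1, a repressor of E-cadherin, rose from 8.19, 4.96 and 7.29 to 128, 92.0 and 121, and CDH2, N-cadherin, by 0.58. FOXC1, at 38.0, 29.5 and 33.7 against 41.0, 59.0 and 36.4, did not pass. Of 17 cadherins, 6 rose and 8 fell (median -0.31), with 4 and 9 under quantile normalization and 3 rises among the 15 still tested when any 1 R50 replicate was left out. CDH11 rose from 71.7, 112 and 65.5 to 1399, 1725 and 1771, and PCDH7 fell by 4.35.

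Factors of lineage choice included both large rises and large falls. Of 17 SOX, T-box and LIM-only genes, 8 rose and 7 fell. SOX2, the stem cell factor, was listed at 0 in the parent libraries and at 36.6, 35.9 and 46.0 in R50, and SOX4 rose from 30.4, 27.0 and 40.6 to 662, 751 and 715, a change of 4.42 (SE 0.14, adjusted p = 8.66e-10, limma). Of 10 glioma stem markers, 5 rose and 2 fell, BMI1 by 1.00 upward and CD44, the hyaluronan receptor, by 0.54 downward, and 1 fell when any 1 parent replicate was left out. NES, nestin, did not pass (limma adjusted p = 0.858). Of 18 HOX genes, 7 rose and 3 fell, or 4 and 6 with quantile normalization, under which the median of 0.08 became -0.06. Without R50 replicate 2 the median was 0.13, and without parent replicate 2 only 1 fell. HOXC10, HOXC8 and HOXC4 rose by 2.81, 1.36 and 1.82, and HOXD10 fell from 36.1, 21.4 and 26.8 to 0, 0.930 and 0.

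Contractile genes and matrix proteases moved both ways, as did all tested genes, of which 31.6% were higher and 31.7% lower. Of 22 genes of actin filaments and contraction, 10 rose and 8 fell (median 0.05), and none of the falls reached 2-fold. CNN1, the calponin of smooth muscle, rose from 96.8, 92.1 and 92.8 to 848, 716 and 760, MYH10, a nonmuscle myosin, by 3.13, and ACTA2, smooth muscle actin, from 511, 488 and 475 to 1757, 1576 and 1837. Of 17 YAP and TEAD factors and targets, 7 rose and 7 fell. Of 30 matrix proteases and TIMPs, 10 rose and 15 fell (median -0.22, or -0.35 without R50 replicate 2). ADAMTS1 went from 7237, 7883 and 7551 to 514, 551 and 430, ADAM8 fell by 3.57, ADAMTS5 by 4.87, and the inhibitor gene TIMP3 rose from 481, 607 and 625 to 4931, 4540 and 5123.

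Most transcripts of protein quality control at the endoplasmic reticulum were slightly lower. Of 21 chaperones and sensors of the unfolded protein response, 13 fell and 3 rose, with a median of -0.30 and none reaching 2-fold. With quantile normalization 11 fell and 5 rose, with a median of -0.17. CANX, the calnexin chaperone, went from 68001, 69982 and 70845 to 44709, 50928 and 44653, and ATF6, a sensor of the response, fell by 0.86. Of 28 proteasome subunits, 14 fell and 5 rose (median -0.18), though 8 and 8 with quantile normalization, and 2 or 3 rose when any 1 parent replicate or R50 replicate 1 was left out. PSMD14 and PSMD1, both on chromosome 2, fell by 0.81 and 0.79. Of 14 cytosolic heat shock genes, 6 rose and 5 fell, or 7 and 3 with quantile normalization, HSPB1 going from 6366, 6080 and 6318 to 13339, 10090 and 14975.

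Ribosomal protein genes rose slightly. Of 33 tested, 19 rose and 1 fell, with a median of 0.15, none reaching 2-fold, and 31 rose with quantile normalization. The rises numbered 11 without parent replicate 2 or R50 replicate 1 and 12 without parent replicate 3. RPLP1 rose by 0.50, RPLP2 by 0.48 and RPS19 by 0.49, and RPS18, outside that list, by 0.84, while RPS7, on chromosome 2, fell by 0.47. R50 replicate 2 was the lowest R50 library in 30 of the 33 genes. In RPS19 the R50 libraries stood at 75840, 63852 and 71384 against 50593, 49548 and 49775 in parent, so the 63852 of replicate 2 was the nearest to parent without overlapping it.

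Genes of energy metabolism had medians near 0. The counts here stand beside 31.6% higher and 31.7% lower over all tested genes. Of 33 nuclear genes of oxidative phosphorylation, 10 rose and 6 fell with a median of 0.07, or 20 and 5 with quantile normalization. Without R50 replicate 2 the median was 0.13. Of 13 mitochondrially encoded genes, 1 rose and 3 fell with a median of -0.12, and 5 rose and 1 fell with a median of 0.07 under quantile normalization, so their direction depends on the scaling. Without parent replicate 3, 2 rose and 1 fell, and without R50 replicate 2 the median was -0.02. SDHD, a subunit of succinate dehydrogenase, rose by 0.97, with R50 replicates at 1264, 1577 and 1020. Of 31 sterol and fatty acid genes, 13 fell and 6 rose (median -0.12), or 12 and 9 with quantile normalization, and 10 rose without R50 replicate 2, where the median was -0.07. SREBF2, the regulator of cholesterol synthesis, rose by 0.81, while ACACA, which starts fatty acid synthesis, fell from 4452, 4304 and 4375 to 2500, 2477 and 2259. Of 26 genes of ATF4 and amino acid supply, 12 rose and 7 fell (median 0.13), with the stress genes DDIT4 and NUPR1 higher by 1.31 and 1.48 and VLDLR lower by 1.79. Of 29 lysosome and autophagy genes, 11 rose and 11 fell, or 14 and 8 with quantile normalization. TFEB, a regulator of lysosome genes, rose from 79.8, 105 and 82.9 to 427, 321 and 371, the protease gene CTSL fell by 2.22, and CTSZ, at 28.1, 27.0 and 22.6 in parent, was listed at 0 in R50.

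Of 22 voltage-gated and potassium channels, 11 fell and 5 rose (median -0.39), with 9 rises without a filter on low values and 3 at a minimum of 50. KCNJ2, an inward rectifier, rose from 13.0, 6.64 and 11.2 to 148, 135 and 160, and KCNS3 fell by 2.37. Of 8 RNA and DNA editing enzymes, 2 rose, or 3 with 1 fall under quantile normalization and 1 fall without parent replicate 3, and the rise of APOBEC3H, at 2.62, started from 4.41, 2.57 and 4.64. Of 21 aquaporins and nutrient carriers, 8 rose and 8 fell, and 5 rose without R50 replicate 3.

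Markers of the cell types of brain gave a mixed picture for both lines. The astrocyte markers GFAP and S100B were nearly absent, GFAP at 1.70 to 8.18 in parent and 5.10 to 6.72 in R50 and S100B at 0 in all parent libraries and at most 1.01 in R50. Both were under the minimum for a test. Of the 5 astrocyte markers tested, 2 rose and 2 fell. SLC1A3, a glutamate transporter, went from 2850, 2863 and 3062 to 5296, 5733 and 5745 and ALDOC, an aldolase, rose by 0.42, while ALDH1L1 fell by 4.31 and the gap junction gene GJA1 did not pass. The summed astrocyte list went from 11709 to 13136 in parent to 16934 to 18032 in R50. OLIG2 was low and did not pass, at 24.3, 17.1 and 19.6 against 16.1, 18.2 and 15.8. The neuron markers RBFOX3, DCX and the neurofilament genes were near 0 in both groups, and of the 8 tested 2 rose and 5 fell, SNAP25 from 374, 419 and 409 to 42.5, 43.1 and 39.7 and GAP43 from 77.1, 99.9 and 91.2 to 4.13, 4.71 and 3.27. The summed level of the neuron list fell from 20441 to 21115 in parent to 9113 to 9764 in R50, most of it UCHL1, while MAP2 and SYP rose by 0.65 and 0.82. The rise of TENM2, L1CAM and CHL1 thus came beside a lower sum of neuron markers.

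Markers of blood, vessel and connective tissue cells bear on TIE1, APOE, SPN and the contractile genes. TYROBP was at 0 in all 6 libraries and PTPRC at 2.94 or less, and the summed myeloid list fell from 1437 to 1522 in parent to 251 to 300 in R50, most of it CSF1R, from 1378, 1469 and 1423 to 231, 177 and 182. Of the 5 myeloid markers tested, 1 rose and 2 fell. The one that rose was ITGAM, an integrin subunit, from 2.00, 0 and 0 to 20.7, 24.5 and 27.4. Of the 4 markers still tested without R50 replicate 2, 0 rose. The rises also numbered 0 without R50 replicate 3, 0 at a minimum level of 50, where 1 fell, and 2 without parent replicate 3. The part of myeloid cells in the rises of APOE and SPN was not tested. Of 7 endothelial markers, 3 rose and 4 fell, and without R50 replicate 2 only 1 of 6 tested rose, while 2 fell when any 1 parent replicate was left out. The summed endothelial list rose from 392.8 to 435.1 in parent to 900.4 to 1099.7 in R50, most of it TIE1, since PECAM1 fell by 0.58 and CDH5, VWF and KDR were at 31.4 or less in all 6 libraries. Of 9 pericyte and fibroblast markers, 5 rose and 3 fell. COL1A1 and COL1A2 rose by 0.80 and 1.29 and RGS5 by 1.43, while LUM fell from 186, 215 and 211 to 0.935, 3.79 and 3.95 and PDPN by 2.44. The summed list went from 24676 to 28935 in parent to 41536 to 48527 in R50, mostly collagen I, and the part of such cells in the rise of ACTA2 and CNN1 was not tested.

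Whole chromosomes differed in their balance. On chromosome 2, 604 of 1114 tested genes fell and 165 rose, with a median of -0.34, and on chromosome 21, 103 of 190 fell with a median of -0.34. Chromosomes 4 and 7 had medians of -0.27 and -0.20. On chromosome 6, 398 of 838 genes rose with a median of 0.32, and on chromosome 14, 283 of 568 rose with a median of 0.30. DNA copy number was not measured. MCM6, RRM2, IL1B and HSPD1 lie on chromosome 2, CDKN1A, HLA-DRA and RPS18 on chromosome 6, and ADAMTS1 and ERG on chromosome 21, and how much of their change goes with the chromosome was not tested.

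**Figure D5:**
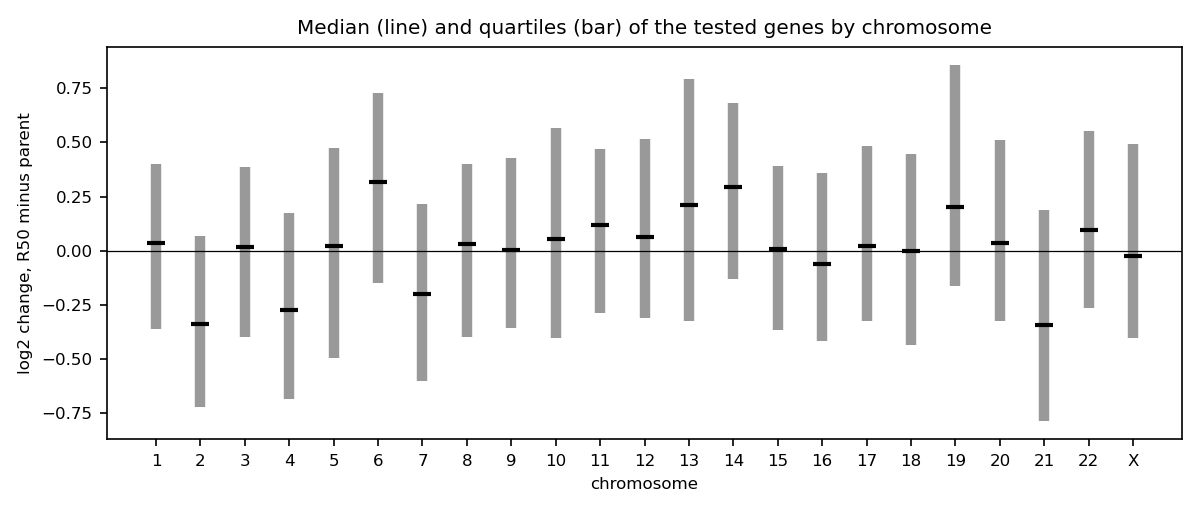
Log2 change from parent to R50 of the tested genes of each autosome and of chromosome X, with a line at the median and a bar from the lower to the upper quartile. Chromosomes 2, 4, 7 and 21 have medians from -0.34 to -0.20, and chromosomes 6, 13, 14 and 19 from 0.20 to 0.32, and every bar crosses 0.

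The line off the drug had levels of its own for these genes, and both comparisons with R50 share its libraries. The mean level in R50_OFF was 456 for MSN, 7.74 for SLFN11, 577 for CHL1, 1396 for MAGEA12 and 2196 for CSAG1, values that lay within 1.5-fold of the R50 mean. It was 996 for TENM2, 488 for THY1, 86.0 for ZNF91 and 227 for BMF, levels between those of parent and R50. It was 1.15 for KRT81, 0.420 for RARRES2, 7.92 for TIE1 and 22.9 for APOE, of which APOE lay above its parent mean, and the others were under 10 in both R50_OFF and parent on average. For SPRY4 and DUSP6 the R50_OFF means were 755 and 2244, for MCM6 and E2F1 10554 and 1940, and for IL1B and CXCL8 4551 and 2191. The R50_OFF mean of E2F1 was above its parent libraries, and the other 5 genes lay between parent and R50 on average.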

How the data were processed

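Libraries were prepared from poly-A RNA with a kit that keeps strand and read as single ends of 50 bases, per the labels' protocols. For the upstream steps the notes of the submitters give bcl2fastq, version 2.17.1.14, and hg38 (per the submitters' processing notes). The aligner, the counting tool with its strand setting and the annotation were not given in the sources used. The authors deposited 1 linear signal value for each gene and library, scaled across libraries and then to median transcript length per kilobase, per the file headers. Division by length cancels in a fold change but for the pseudocount. Within each gene the values were whole multiples of a step, to 1e-06 reads, for 100% of genes, which gave the traced reads. Positions came from GENCODE version 44 on hg38, which matched 99.62% of gene IDs.

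The fit was limma 3.58.1 in R 4.3.3 on log2(level + 1), with an empirical Bayes trend, all 9 libraries, 6 residual degrees of freedom, two-sided tests, and Benjamini-Hochberg adjustment over the 16456 genes at 10 or more in at least 3 libraries. It was tested on simulated data. Lists were described by counts and medians, with no set test. Alternatives were pseudocounts of 0.1 and 8, no filter, a minimum of 50, quantile normalization, the 6 libraries alone, a replicate block, leaving out each replicate, and limma voom on the traced reads, which was added after seeing the data.

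The members and lists were chosen with earlier results of these data known. Named genes were the 25 largest log2 rises and falls and the 10 largest rises and falls in level. They came from genes past the threshold, without overlap, and with a mean in the higher group at or above its median over tested genes. Genes without a symbol, genes of chromosome Y and XIST were left out of these rankings. To the ranked genes came up to 4 genes of each list, every member of marker lists and of lists with at most 12 tested genes, and GFAP, S100B, OLIG2, SOX2, VIM, CD44, MKI67 and the moesin family. CNTNAP2, NCAM2, ACKR3, OAS1, OAS2, HLA-B, SPRED1, TYMS, ZNF100 and the genes whose promoters are shown were chosen after their values were seen. Values of ZNF, KRT81, KRT86, MAGE, CSAG1, HLA, IFITM and HSPA1B genes are uncertain because near-identical copies may split reads. Some named genes and 1 list are not reported here.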

Additional observations from a re-analysis of the deposited data

How the results depend on the processing

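Against the 5206 genes higher and 5216 lower, the counts were 5132 and 5178 with a pseudocount of 0.1, 5265 and 5229 with one of 8, 5859 and 5287 without a filter, 4175 and 4657 with a minimum of 50, 5281 and 5176 with quantile normalization, and 5048 and 5061 with the 6 libraries alone. Leaving out 1 replicate gave 4411 to 4816 higher and 4664 to 5323 lower. limma voom on the traced reads, added after seeing the data, gave 5303 and 5281. The replicate block gave 5335 higher and 5318 lower. Libraries with the same number showed no shared deviation, with correlations of -0.02, 0.03 and 0.04. Those with different numbers ran from -0.07 to 0.04. Such values cannot tell whether libraries with the same number were handled together. The deposited values are scaled per kilobase and are not counts. The planned quasi-likelihood count test was not run, and limma voom on the traced reads was added instead.

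Of 299 called named genes, 10 lost the call in at least 1 of the 14 settings (ADGRL4, CNP, MT-ND4, MT-ND5, EZR, TUBB3, VWF, NOTCH1, IL36B and IL18R1), and 0 reversed. Of 116 list counts, 28 moved by over 1.5 times in some setting. The cause was not tested. With 3 libraries in a group, small changes of genes at low levels may not be detectable.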
